A study of Mus musculus with 2 samples.

Results

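In dissociated mouse pancreatic tumours, 9 transcription factor genes of pancreatic lineage and the Sox family were followed across sorted populations and cell classes by droplet-based (10x 3′) RNA sequencing of single cells. The genes were Pdx1, Ptf1a, Foxa2, Gata6, Hnf4a, Onecut2, Sox9, Sox4 and Sox11, chosen by symbol, and they are 9 of the 55361 features counted. There were 2 libraries, 1 of cells sorted for high surface CD9 (CD9hi) and 1 labelled as whole tumour. Every tumour came from the KPFRR mouse, whose alleles are Rosa26mTmG, Rosa26FSF-creER, Trp53frt/frt, KrasFSF-G12D/+ and Pdx1-Flp. The same alleles therefore stood behind both libraries, and Flp recombinase was made where the Pdx1 promoter is active. The labels name pancreas as the tissue and pancreatic ductal adenocarcinoma as the disease, state that live cells were sorted by GFP or by CD9, and give neither an age nor a count of animals. With 1 library in each group there was no replicate, so differences are given as sizes with 95% intervals for counting error only, without a test. A gene is called higher or lower where the ratio of its level in CPM, its UMIs scaled to the UMIs of all genes, reached 1.5-fold at a mean of at least 5 CPM.

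Pdx1 and Ptf1a together define the embryonic pancreatic progenitor, and Ptf1a later becomes the core activator of digestive enzyme genes in acinar cells. Foxa2, Gata6, Hnf4a and Onecut2 belong to the foregut endoderm network, in which Foxa2 opens chromatin for later factors and Gata6 and Hnf4a hold the epithelial, classical identity of pancreatic cancer cells. Sox9 marks progenitors and adult ducts, and Sox4 and Sox11 are closely related SoxC factors of developing tissues that are also found in epithelial cells changing towards a mesenchymal state.

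The starts of 3 of these genes are shown because results below turn on them: Ptf1a and Hnf4a, which were lower in CD9hi cells, and Pdx1, which was higher in cells with Prrx1. Each line holds the 250 bases before an annotated start, 5′ to 3′ on the plus strand, from RefSeq on GRCm38.p6, which is an earlier build than the GRCm39 of the counts. RefSeq promoters were matched for 6 of the 9 genes, and Hnf4a has a distal and a proximal start. Capitals mark matches, on either strand, to the E-box CANNTG (read by helix-loop-helix factors such as Ptf1a), the Onecut core ATTGAT, the forkhead core TGTTTAC and the GATA site AGATAA, and no match shown overlapped one of another motif.
Ptf1a, chr2:19445413-19445662: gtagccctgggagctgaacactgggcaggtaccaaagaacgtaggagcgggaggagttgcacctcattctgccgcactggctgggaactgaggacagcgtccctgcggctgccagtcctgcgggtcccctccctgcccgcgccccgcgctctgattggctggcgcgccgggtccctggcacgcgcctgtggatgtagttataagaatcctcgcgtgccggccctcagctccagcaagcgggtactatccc
Pdx1, chr5:147269847-147270096: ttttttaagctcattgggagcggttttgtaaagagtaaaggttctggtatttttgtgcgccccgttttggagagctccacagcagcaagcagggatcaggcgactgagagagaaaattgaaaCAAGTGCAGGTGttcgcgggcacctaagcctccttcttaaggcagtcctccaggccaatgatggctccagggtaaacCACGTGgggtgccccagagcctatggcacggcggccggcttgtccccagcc
Hnf4a distal start, chr2:163506607-163506856: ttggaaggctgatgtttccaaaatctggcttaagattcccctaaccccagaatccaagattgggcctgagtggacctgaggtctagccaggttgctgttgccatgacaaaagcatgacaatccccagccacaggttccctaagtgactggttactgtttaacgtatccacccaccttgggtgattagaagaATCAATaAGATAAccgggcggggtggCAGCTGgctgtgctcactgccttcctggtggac
Hnf4a proximal start, chr2:163546905-163547154: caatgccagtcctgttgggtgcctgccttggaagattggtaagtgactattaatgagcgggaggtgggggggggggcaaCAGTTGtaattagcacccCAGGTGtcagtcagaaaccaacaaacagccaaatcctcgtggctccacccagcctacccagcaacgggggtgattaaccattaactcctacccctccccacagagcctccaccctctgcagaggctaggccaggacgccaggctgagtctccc
The Pdx1 window held 3 E-boxes, the proximal Hnf4a window 2 and the distal Hnf4a window 1, beside 1 Onecut core and 1 GATA site. The Ptf1a window held 0 matches. Of all 32851 RefSeq mouse promoters cut to the same length, 66.2% held an E-box, 6.72% a Onecut core, 3.17% a forkhead core and 9.99% a GATA site. A match describes these letters and is not a measured binding site.

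The CD9hi library had 5092 kept barcodes with a median of 21791.5 UMIs, and the whole-tumour library had 2550 with a median of 17686. The sort was seen in the RNA, with Cd9 at 2367 CPM in CD9hi, against 1273 CPM in whole-tumour cells. CD9hi cells had more of the mesenchymal filament gene Vim, at 4862 CPM against 1139 CPM, and less of the epithelial adhesion gene Epcam, at 1052 CPM against 1925 CPM. Acinar digestive enzymes, a list of 19 genes, took 0.0195% of CD9hi UMIs and 5.69% of whole-tumour UMIs. The GFP reporter was listed with 0 UMIs in both libraries, which allows up to 0.025 CPM in the CD9hi library and 0.065 CPM in the whole tumour, so the sorted lineage could not be read from it. Barcodes with little of the nuclear RNA Malat1, under 1000 CPM, made up 12.04% of CD9hi and 8.47% of whole-tumour cells and are given beside each result they touch. Of the kept barcodes, 2 sequences occurred in both libraries.

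Across the libraries the lineage factors parted from one another. Ptf1a, Hnf4a and Onecut2 were lower in CD9hi cells, Sox9 was higher, and Pdx1, Foxa2, Gata6, Sox4 and Sox11 stayed within 1.5-fold. That is 1 of 9 genes higher, where 17.1% of all 9760 measured genes were, and 3 of 9 lower, where 13.4% were. The median log2 ratio was -0.42 over the 9 genes and 0.13 over all measured genes. In these sums of cells, fewer cells of a type and less RNA per cell cannot be told apart.

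Ptf1a had 1 UMI in the CD9hi library, at 0.0084 CPM (0.00021 to 0.047), and 1545 UMIs in the whole tumour, at 33.4 CPM (31.7 to 35.1). The log2 ratio was -11.38 (-17.27 to -9.48). The lone CD9hi UMI lay in a cell that was high for acinar enzymes and for Vim. After each cell was thinned to 5000 UMIs, which left out 114 CD9hi and 165 whole-tumour cells, 0 of 4978 CD9hi cells had a Ptf1a UMI (0 to 0.074%), against 8.51% (7.42 to 9.70) of 2385 whole-tumour cells. Only 4 CD9hi cells had at least 5% of their UMIs in acinar enzymes, against 384 whole-tumour cells, so the library with 1 Ptf1a UMI was also the one with few cells of high acinar enzyme content. Without the acinar-enzyme-high cells of either library, Ptf1a had 0 UMIs in CD9hi, against 16.4 CPM in whole-tumour cells. Set against a floor of 3 counts over the CD9hi library, which is not the bound of an interval, it was 654-fold lower in CD9hi.

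Pdx1, which in the adult is kept mainly by beta cells, was at 14.6 CPM (13.9 to 15.3) in CD9hi, against 16.8 CPM (15.6 to 18.0) in whole-tumour cells, a log2 ratio of -0.20 (-0.33 to -0.080). The endoderm pioneer Foxa2 was at 34.1 CPM (33.1 to 35.2) in CD9hi, against 35.2 CPM (33.6 to 37.0) in whole-tumour cells, a log2 ratio of -0.05 (-0.13 to 0.04). Gata6 was at 18.9 CPM (18.2 to 19.7) in CD9hi, against 25.5 CPM (24.0 to 27.0) in whole-tumour cells, with a log2 ratio of -0.43 (-0.53 to -0.33). The Foxa2 interval included 0, and the Pdx1 and Gata6 intervals lay below 0 without reaching 1.5-fold. Hnf4a, a nuclear receptor of gut and liver epithelium, was at 5.86 CPM (5.43 to 6.31) in CD9hi, against 14.4 CPM (13.4 to 15.6) in whole-tumour cells, a log2 ratio of -1.30 (-1.46 to -1.15). Onecut2 was at 205 CPM (203 to 208) in CD9hi, against 413 CPM (408 to 419) in whole-tumour cells, a log2 ratio of -1.01 (-1.04 to -0.98). These counting intervals did not overlap between the libraries for Pdx1, Hnf4a, Onecut2 or Gata6. How many of all genes had such a gap was not counted, so the gaps alone say nothing particular about these genes.

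Of Sox9, Sox4 and Sox11, only Sox9 was higher in CD9hi cells. Sox9 was at 496 CPM (492 to 500.4) in CD9hi, against 225 CPM (221 to 230) in whole-tumour cells, a log2 ratio of 1.14 (1.11 to 1.17). Sox4 was at 508 CPM in CD9hi, against 509 CPM in whole-tumour cells, a ratio of -0.0048 (-0.026 to 0.017). Sox11 was at 182 CPM in CD9hi, against 244 CPM in whole-tumour cells, a ratio of -0.42 (-0.46 to -0.39), and it reached -0.64 once acinar-enzyme-high cells were left out. Neither SoxC gene reached 1.5-fold over all cells, and Sox4 differed by less than its counting error.

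Shares of thinned cells with a UMI followed the summed levels for the genes called higher or lower. Sox9 was found in 71.7% (70.4 to 72.9) of CD9hi and 54.5% (52.4 to 56.5) of whole-tumour cells. It was the only gene of the 9 with a larger CD9hi share beyond the intervals. How many of all genes had a larger CD9hi share was not counted. Onecut2 was found in 49.7% of CD9hi and 61.9% of whole-tumour cells, Hnf4a in 2.79% of CD9hi and 5.83% of whole-tumour cells, and Gata6 in 7.995% of CD9hi and 11.5% of whole-tumour cells. Sox4 was found in 73.7% of CD9hi and 75.3% of whole-tumour cells. Sox11 was found in 45.04% (43.6 to 46.4) of CD9hi and 46.7% (44.6 to 48.7) of whole-tumour cells, with overlapping intervals. Foxa2 was found in 12.997% of CD9hi and 14.2% of whole-tumour cells, and Pdx1 in 5.89% of CD9hi and 7.09% of whole-tumour cells. Before thinning, at the deeper medians above, Sox9 was found in 85.6% of CD9hi and 78.2% of whole-tumour cells, and Onecut2 in 71.7% of CD9hi and 74.4% of whole-tumour cells. Sox11 was then found in 70.7% of CD9hi and 62.9% of whole-tumour cells, the reverse of its summed order. As a background, 21 thinned cells of the CD9hi library with immune markers had Sox9 in 14.3% (3.05 to 36.3), Sox11 in 14.3%, Sox4 in 9.52% (1.17 to 30.4), Onecut2 and Foxa2 in 4.76% (0.12 to 23.8), and no Pdx1, Gata6 or Hnf4a (0 to 16.1%). Sox9, Sox4, Sox11 and Onecut2 stood above the upper bounds of that background, whereas the low shares of Pdx1, Foxa2, Gata6 and Hnf4a lay inside its wide intervals and could not be parted from background by detection.

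**Figure D1:**
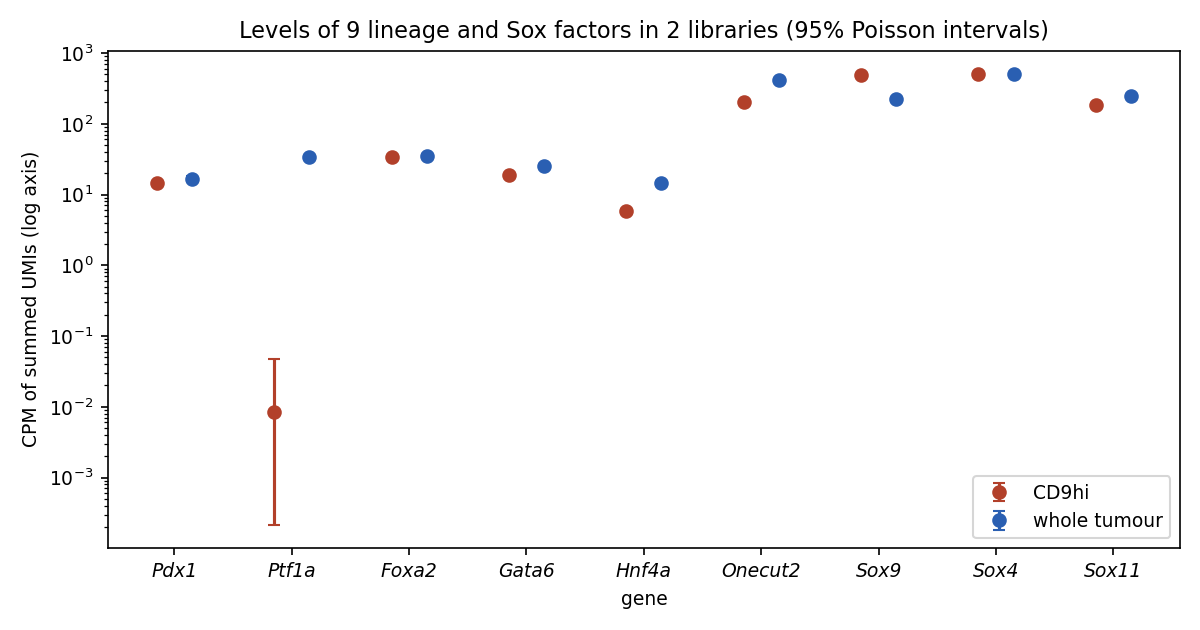
Summed level of each gene in the CD9hi library (red, left of each pair) and the whole-tumour library (blue, right), in CPM on a log axis, with 95% Poisson intervals that are mostly smaller than the points. Ptf1a parts furthest, at 0.0084 CPM in CD9hi, against 33.4 CPM in the whole tumour, and Sox9 is the gene that lies higher in CD9hi.

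Cells were then grouped by marker level within each library. The classes were acinar-enzyme-high (at least 5% of UMIs in acinar enzymes), Tff1/Tff2-high (at least 1000 CPM of these gastric trefoil genes), Krt17-high (at least 1000 CPM of this basal keratin), Vim-high (at least 2000 CPM) and Prrx1-positive (at least 1 UMI of this mesenchymal homeobox gene). They are ranges of a value and not cell types, and a cell may belong to several. The CD9hi library held 4115 Vim-high and 1100 Prrx1-positive cells but only 4 acinar-enzyme-high, 16 Tff1/Tff2-high and 27 Krt17-high cells. The whole tumour held 384 acinar-enzyme-high, 523 Tff1/Tff2-high, 50 Krt17-high, 514 Vim-high and 6 Prrx1-positive cells. Classes under 50 cells were not compared. Many cells lay near a limit, with 1284 CD9hi cells between the Vim limit and double it and 390 between it and 0.5 times it, and 265 and 149 such cells in the whole tumour. Around the acinar limit the whole tumour had 79 cells up to double and 82 down to 0.5 times it, around the trefoil limit 149 and 126, and around the Krt17 limit 33 and 58.

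Acinar-enzyme-high cells of the whole tumour carried more Ptf1a and less Onecut2 and Sox11. Ptf1a was at 124 CPM (116 to 133) in them and 16.4 CPM in the other cells, a log2 ratio of 2.92 (2.77 to 3.07). Onecut2 was at 37.0 CPM against 484 CPM (-3.71, -3.89 to -3.54) and Sox11 at 36.8 CPM against 282 CPM (-2.94, -3.12 to -2.76). Sox9, Sox4 and Gata6 were lower as well, at -1.08, -0.91 and -0.75, while Pdx1, Foxa2 and Hnf4a stayed within 1.5-fold. So 1 of 9 genes was higher, where 3.81% of genes were, and 5 were lower, where 77.9% of genes were, a share that leaves little to read from the 5. Of these cells 48.2% were low in Malat1, against 8.47% of the whole library. With low-Malat1 barcodes left out, 199 acinar-enzyme-high cells had Ptf1a at 182 CPM against 16.1 CPM (3.50), Onecut2 at 63.4 CPM against 486 CPM (-2.93) and Sox11 at 62.5 CPM against 285 CPM (-2.19). Sox9, Sox4 and Gata6 were then at -0.53, -0.23 and -0.20, inside 1.5-fold, and 42.2% of genes were lower. Beside these values, ductal markers summed to 6633 CPM in acinar-enzyme-high and 27483 CPM in other cells, with 0 of 9 higher, and their part in the result was not tested.

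The Ptf1a of the whole tumour did not follow the enzymes in proportion across the classes. Per 10000 acinar enzyme UMIs, cells that were high for acinar enzymes alone had 13.1 Ptf1a UMIs (12.1 to 14.2). Those high for both acinar enzymes and trefoil genes had 1.45 (1.29 to 1.63), and 73.7% of them were low in Malat1. Cells of no class had 60.5 (54.98 to 66.4), cells high for trefoil genes alone 57.2 (48.1 to 67.5) and cells high for Vim alone 107 (79.98 to 140). The acinar class was itself set on the enzymes, which are the denominator here, so its low ratio is in part fixed by that choice, and the intervals of the no-class and trefoil-high cells overlapped. The part of free RNA in these values was not tested. In the CD9hi library, Vim-high cells of no other class had 1835 acinar enzyme UMIs with 0 of Ptf1a, which allows up to 20.1 per 10000. Ptf1a sat in few cells: 198 whole-tumour cells with at least 3 UMIs held 82.5% of all Ptf1a UMIs. Of these, 75 were high for acinar enzymes alone, 46 also for trefoil genes, 20 for trefoil genes alone, 3 for Vim alone and 53 belonged to no class. Those 3 Vim-high cells held 45 of the 52 Ptf1a UMIs of their class.

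Whole-tumour cells with at least 3 Ptf1a UMIs had less Onecut2 and more Foxa2 than cells below that count, at 58.2 CPM against 454 CPM of Onecut2 and 64.0 CPM against 31.9 CPM of Foxa2. The 53 such cells of no class had the same order. Acinar enzymes took 2.06% of UMIs in the median cell of these 53, below the limit of the acinar class. Onecut2 was at 84.7 CPM in them and 564 CPM in the other cells of no class, whereas Foxa2 was at 93.9 CPM against 34.4 CPM. Sox9 was at 231 CPM in these cells and 236 CPM in the rest. Rbpjl, the partner of Ptf1a in adult acinar cells, was at 123 CPM against 8.92 CPM, and the duct keratin Krt19 at 512 CPM against 1717 CPM. In cells high for trefoil genes alone, Onecut2 was at 124 CPM in the 20 with at least 3 Ptf1a UMIs and 715 CPM in the others, and Foxa2 at 77.0 CPM against 53.3 CPM. Cells high for both acinar enzymes and trefoil genes were the exception for Onecut2, at 49.2 CPM in the 46 with at least 3 Ptf1a UMIs and 17.8 CPM in the others. Of those 46 cells 19 were low in Malat1, whereas 73.7% of all 228 cells of the combination were. Krt19 had the same order, at 292 CPM against 99.0 CPM, and the part of low-Malat1 barcodes in this exception was not tested. Over thinned cells of no class, without low-Malat1 barcodes, a Onecut2 UMI was found in 19.2% of 52 cells with Ptf1a and in 76.8% of 1165 without, and a Foxa2 UMI in 36.5% and 14.4%. These groups were made by Ptf1a after its values were seen, and no test was made.

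Tff1/Tff2-high cells of the whole tumour had more Hnf4a and far less Sox11. Hnf4a was at 19.96 CPM in them and 12.9 CPM in the other cells (0.64, 0.39 to 0.87), the 1 of 9 genes that was higher, where 5.89% of genes were. Sox11 was at 36.4 CPM against 303 CPM (-3.05, -3.21 to -2.91), Sox4 at 271 CPM against 577 CPM (-1.09) and Sox9 at 126 CPM against 254 CPM (-1.01), so 3 were lower, where 48.8% of genes were. This class overlapped the acinar one in 229 of 523 cells, held 203114 CPM of acinar enzymes against 15168 CPM in the other cells, and was low in Malat1 in 33.5% of its cells. In the 291 cells that were high for trefoil genes and nothing else, 2.41% of them low in Malat1, all of Pdx1, Foxa2, Gata6, Hnf4a and Onecut2 were higher than in cells outside the class. Pdx1 was at 33.1 CPM (28.6 to 38.0), with a log2 ratio of 1.12, Hnf4a at 28.9 CPM (24.7 to 33.5) with 1.17, and Gata6 at 46.1 CPM (40.8 to 51.9) with 0.99. Foxa2 was at 55.3 CPM with 0.71 and Onecut2 at 665 CPM with 0.67. Sox9, Sox4 and Sox11 were lower in the same cells, at -0.62, -0.69 and -2.59. In this narrower set 5 of 9 genes were therefore higher, where 12.1% of genes were, and 3 lower, where 17.7% were. The cells outside the class, however, still included acinar-enzyme-high and Vim-high cells. Whole-tumour cells of no class had Pdx1 at 17.6 CPM, Hnf4a at 15.7 CPM, Gata6 at 27.9 CPM, Foxa2 at 37.6 CPM and Onecut2 at 538 CPM. No genes were called against those cells, so the count of 5 holds only for the wider comparison. Over the whole 523-cell class Hnf4a was the only one of these endoderm factors called higher.

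Krt17-high cells of the whole tumour stood at the other end for Sox11. The 50 cells had Sox11 at 598 CPM (546 to 655), against 238 CPM in the other cells (1.33, 1.20 to 1.47), the 1 of 9 genes that was higher, where 17.5% of genes were. Pdx1, Foxa2 and Ptf1a were lower, at -0.64, -1.56 and -2.27, where 8.03% of genes were. These 3 rested on 8, 9 and 5 UMIs, and the Pdx1 interval (-1.95 to 0.26) included 0. In the CD9hi library 27 Krt17-high cells had Sox11 at 594 CPM, against 180 CPM in the other cells, too few for a comparison. Ductal markers were higher in the whole-tumour Krt17-high cells for 8 of 9 genes, at a summed 38461 CPM against 23959 CPM, and 7 of 8 fibroblast markers were at 0.

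**Figure D2:**
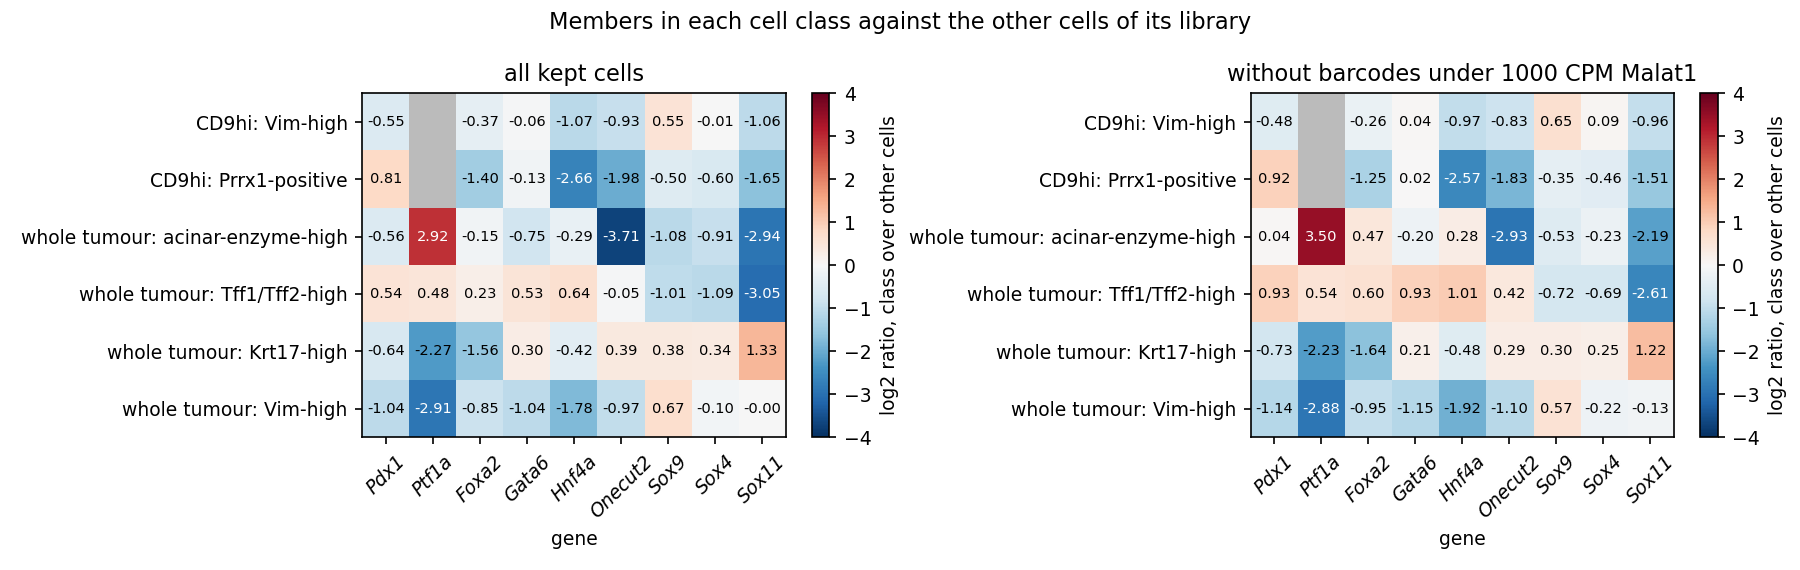
Log2 ratio of each gene in a cell class over the other cells of the same library, with all kept cells (left) and without barcodes under 1000 CPM Malat1 (right); red is higher in the class, blue lower, and grey is Ptf1a in CD9hi, with 1 UMI in all. Ptf1a at 2.92 in acinar-enzyme-high cells, Sox11 at 1.33 in Krt17-high cells and Pdx1 at 0.81 in Prrx1-positive cells are the strongest reds on the left.

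Vim-high cells had less Hnf4a and Onecut2 than other cells in both libraries. In the whole tumour 6 of 9 genes were lower in Vim-high than in other cells, where 12.8% of genes were. Hnf4a was at 4.90 CPM in Vim-high and 17.0 CPM in other cells (-1.78, -2.25 to -1.37), Gata6 at 13.9 CPM against 28.6 CPM (-1.04) and Pdx1 at 9.09 CPM against 18.8 CPM (-1.04). Onecut2 was at 235 CPM against 461 CPM (-0.97), Foxa2 at 21.5 CPM against 38.9 CPM (-0.85) and Ptf1a at 5.41 CPM against 40.9 CPM (-2.91). Sox9 was the 1 gene that was higher, at 318 CPM against 200.4 CPM (0.67, 0.61 to 0.73), where 16.9% of genes were. That call was lost, at 0.57, when low-Malat1 barcodes were left out, at 0.52 when acinar-enzyme-high cells were left out of the other cells, and at 0.48 when acinar enzyme, mitochondrial and ribosomal protein genes were taken out of the totals. Sox4 and Sox11 stayed close to 0, at -0.10 and -0.0023. Acinar enzymes summed to 1154 CPM in Vim-high and 71843 CPM in other cells, and their part in these ratios was not tested beyond the alternatives given.

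In the CD9hi library the same cut gave 3 lower genes, where 10.1% of genes were, and 0 higher, where 4.88% were. Hnf4a was at 4.98 CPM in Vim-high and 10.4 CPM in other CD9hi cells (-1.07), Onecut2 at 179 CPM against 341 CPM (-0.93) and Sox11 at 155 CPM against 323 CPM (-1.06). Sox9 was at 523 CPM against 358 CPM (0.55, 0.51 to 0.58) and reached 1.5-fold, at 0.65, without low-Malat1 barcodes, which were 13.2% of CD9hi Vim-high cells. Pdx1, Foxa2 and Gata6 were at -0.55, -0.37 and -0.06. Hnf4a and Onecut2 were thus the genes called lower in Vim-high cells of both libraries, although the CD9hi Onecut2 ratio was -0.53 over cells that were high for Vim alone, and whether any of these ratios differed between the libraries was not tested. Beside these values, all 8 fibroblast markers were higher in Vim-high cells of both libraries, with a summed level of 180 CPM against 34.0 CPM in the CD9hi library, and of 134 CPM against 7.79 CPM in the whole tumour, and their part in the result was not tested.

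Set against each other at a like Vim range, CD9hi cells kept more Sox9. Over Vim-high cells, Sox9 was at 523 CPM in CD9hi, against 318 CPM in whole-tumour cells (0.72, 0.66 to 0.77) and Foxa2 at 32.6 CPM against 21.5 CPM (0.60, 0.40 to 0.81), 2 of 9 genes higher, where 8.03% of genes were. Sox11 was at 155 CPM in CD9hi, against 244 CPM in whole-tumour cells (-0.65, -0.72 to -0.59), the 1 gene lower, where 8.25% of genes were. Pdx1 was at 13.6 CPM against 9.09 CPM (0.57, 0.27 to 0.90), Gata6 at 18.8 CPM against 13.9 CPM (0.43), Onecut2 at 179 CPM against 235 CPM (-0.39) and Sox4 at 507 CPM against 482 CPM (0.07). Hnf4a, with a mean just under 5 CPM, was at 4.98 CPM in CD9hi, against 4.90 CPM in whole-tumour Vim-high cells, and its log2 ratio, -1.30 over all cells, was 0.01 here (-0.41 to 0.48). Sox9 kept its call under each of the 7 alternatives, from 0.66 to 0.90. Foxa2 fell short of 1.5-fold with halved or doubled class limits, at 0.42 and 0.51. Without Prrx1-positive cells the Sox11 ratio was -0.32 and the Onecut2 ratio 0.0017, and without low-Malat1 barcodes Pdx1 and Gata6 reached 0.70 and 0.60.

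The split by Epcam as well as Vim showed how unevenly the pooled ratios were made up. Cells were divided at 1000 CPM Epcam and 2000 CPM Vim, which gave 691 CD9hi and 1521 whole-tumour Epcam-high Vim-low cells, 1069 CD9hi and 220 whole-tumour Epcam-high Vim-high cells, 3046 CD9hi and 294 whole-tumour Epcam-low Vim-high cells, and 286 CD9hi and 515 whole-tumour Epcam-low Vim-low cells. Sox9 was higher in CD9hi in the first 3 groups, at 0.71 (0.66 to 0.76), 0.89 (0.81 to 0.97) and 0.68 (0.61 to 0.75) in that order. It was at 363 CPM in CD9hi, against 222 CPM in whole-tumour cells of the first group, at 620 CPM in CD9hi, against 334 CPM in whole-tumour cells of the Epcam-high Vim-high group, and at 493 CPM in CD9hi, against 307 CPM in whole-tumour cells of the Epcam-low Vim-high group. These groups are open ranges and did not hold Epcam and Vim alike: in Epcam-high Vim-low cells Vim was at 646 CPM in CD9hi, against 192 CPM in whole-tumour cells, and Epcam at 3911 CPM against 2640 CPM. Genes that were called higher in these 3 groups were 13.4%, 7.96% and 9.93% of all measured genes.

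The endoderm factors Foxa2, Gata6 and Pdx1 were higher in CD9hi where Epcam and Vim were both high, which with Sox9 made 4 genes higher and 0 lower, where 8.69% of genes were lower. There Foxa2 was at 41.2 CPM in CD9hi, against 15.9 CPM in whole-tumour cells (1.36, 1.01 to 1.76), Gata6 at 16.4 CPM against 8.71 CPM (0.90, 0.41 to 1.46) and Pdx1 at 12.5 CPM against 7.96 CPM (0.63, 0.12 to 1.23). Hnf4a was at 6.51 CPM against 1.99 CPM, on 155 and 8 UMIs, a ratio of 1.63 (0.69 to 2.95) below the 5 CPM minimum. The whole-tumour levels of this group rested on 64 UMIs of Foxa2, 35 of Gata6 and 32 of Pdx1. No alternative with doublets removed or with other limits was run for the Epcam and Vim groups. In the Epcam-low Vim-high group Foxa2 and Gata6 stayed within 1.5-fold, at 0.23 and 0.16, and Onecut2, Hnf4a and Sox11 were lower, at -0.75, -0.64 and -0.64, where 9.28% of genes were. In the Epcam-high Vim-low group Onecut2 was at 403 CPM in CD9hi, against 550.4 CPM in whole-tumour cells (-0.45), Gata6 at 21.0 CPM against 30.4 CPM (-0.53) and Sox11 at 400.4 CPM against 301 CPM (0.41), none past 1.5-fold. Ptf1a, with 0 CD9hi and 833 whole-tumour UMIs there, was the 1 gene lower, where 13.1% of genes were. Of Epcam-low Vim-high cells 17.7% were low in Malat1 in CD9hi and 1.36% in the whole tumour, against 0.65% and 0.91% of Epcam-high Vim-high cells. Without low-Malat1 barcodes none of the 3 lower calls of the Epcam-low Vim-high group was kept, with Onecut2 at -0.53, Hnf4a at -0.36 and Sox11 at -0.43, where 6.5% of genes were lower. Pdx1 then reached 0.65 (0.28 to 1.07) beside Sox9 at 0.90, so 2 genes were higher, where 13.3% of genes were.

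The Epcam-low Vim-low group had Sox9 at 345 CPM in CD9hi, against 130 CPM in whole-tumour cells (1.41, 1.30 to 1.52) and Sox11 at 95.6 CPM against 55.5 CPM (0.78, 0.60 to 0.97), 2 genes higher, where 63.6% of genes were, so nothing can be read from that count. Hnf4a was at 3.06 CPM against 15.8 CPM (-2.32, -3.24 to -1.59), and with Ptf1a, at 0 UMIs in CD9hi and 659 in the whole tumour, it made 2 genes lower, where 9.76% were. Low-Malat1 barcodes were 22.03% of these cells in CD9hi and 36.7% in the whole tumour. Without them Sox9 was at 1.19 and Sox11 at 0.41, inside 1.5-fold, and Foxa2 and Gata6 became lower, at -0.73 and -0.82. The median log2 ratio of all measured genes was then 0.51. The share of all genes called lower in that setting is not given, so these 2 calls have no background beside them.

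**Figure D3:**
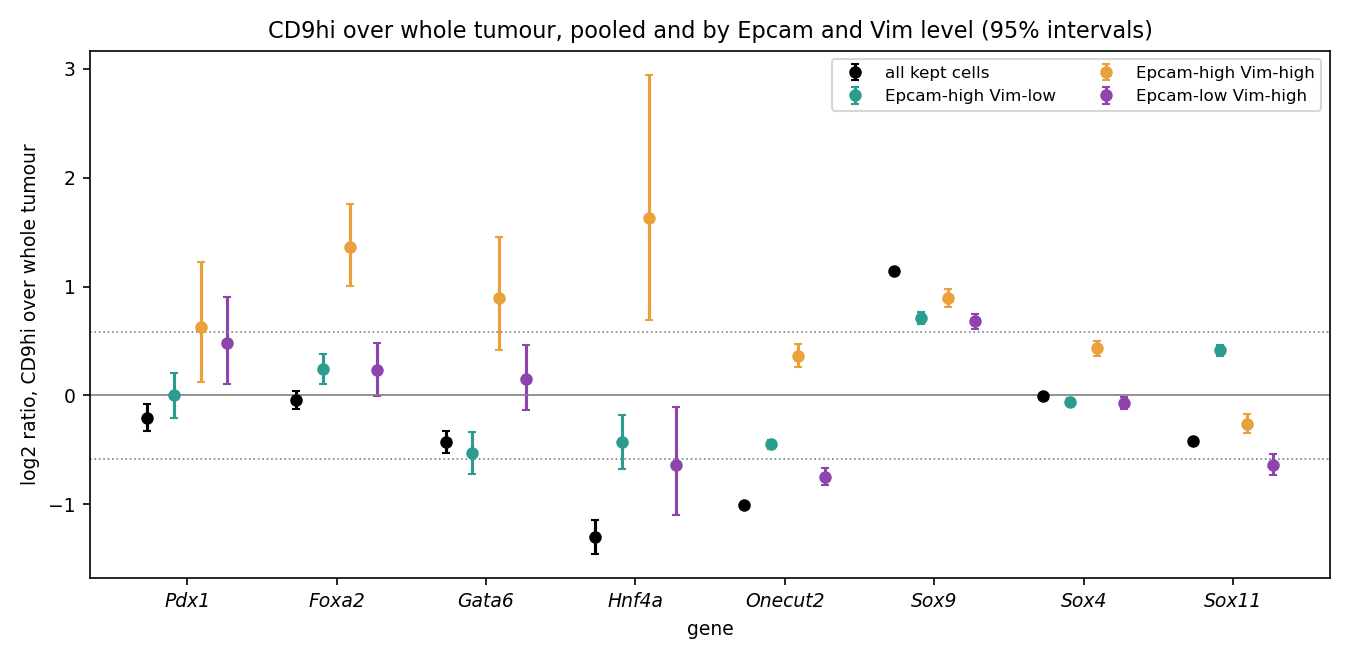
Log2 ratio of CD9hi over whole tumour for 8 genes over all kept cells (black) and within 3 groups set by Epcam and Vim level, with 95% intervals for counting error; dotted lines mark 1.5-fold, and Ptf1a is left out because CD9hi had 1 UMI. Sox9 lies above 1.5-fold in each of the 3, and Hnf4a and Foxa2 lie highest in the Epcam-high Vim-high group, at 1.63 and 1.36.

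Prrx1-positive cells of CD9hi had more Pdx1 and less Foxa2, Onecut2, Sox4 and Sox11. Pdx1 was at 20.9 CPM (19.4 to 22.4) in the 1100 Prrx1-positive cells and 11.9 CPM in other CD9hi cells (0.81, 0.67 to 0.95), the 1 of 9 genes that was higher, where 14.4% of genes were. Onecut2 was at 66.7 CPM against 263 CPM (-1.98), Sox11 at 72.7 CPM against 228 CPM (-1.65), Foxa2 at 15.8 CPM against 41.8 CPM (-1.40) and Sox4 at 372 CPM against 565 CPM (-0.60), so 4 were lower, where 15.3% of genes were. Sox4 was no longer called without low-Malat1 barcodes, at -0.46, with doubled limits, at -0.48, or over cells of exactly 1 class, at -0.41. It was not called either, at -0.53, when acinar enzyme, mitochondrial and ribosomal protein genes were taken out of the totals. Hnf4a was at 1.22 CPM against 7.80 CPM (-2.66), below the minimum, and Gata6 at 17.8 CPM against 19.4 CPM (-0.13). The 10 highest of the 1100 cells held 13.6% of the Pdx1 UMIs of the class, and over the CD9hi library 65.5% of Pdx1 UMIs lay in the top 10% of cells. After thinning a Pdx1 UMI was found in 8.43% (6.85 to 10.2) of Prrx1-positive cells and 5.89% of all CD9hi cells, which include the class.

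The same order held inside the Vim-high range. Among CD9hi Vim-high cells, Pdx1 was at 20.6 CPM in 1006 Prrx1-positive and 10.1 CPM in 3109 Prrx1-negative cells (1.04, 0.88 to 1.19), 1 gene higher, where 14.1% of genes were. Onecut2 was at 63.5 CPM against 236 CPM (-1.89), Sox11 at 72.3 CPM against 195 CPM (-1.43), Foxa2 at 15.9 CPM against 40.8 CPM (-1.36), Sox4 at 368 CPM against 575 CPM (-0.64) and Sox9 at 385 CPM against 591 CPM (-0.62), so 5 were lower, where 14.8% of genes were. Pdx1 thus was higher where Foxa2 and Onecut2 were lower, while Gata6 stayed at -0.15. In thinned Vim-high cells a Pdx1 UMI was found in 7.78% of Prrx1-positive and 4.73% of Prrx1-negative cells. Prrx1-positive cells were the deeper ones, with a median of 30573.5 UMIs against 21371, and more often low in Malat1, 209 of 1006 against 336 of 3109. Without low-Malat1 barcodes Pdx1 was at 1.15, Onecut2 at -1.75, Sox11 at -1.30 and Foxa2 at -1.22, while Sox9 at -0.47 and Sox4 at -0.51 were no longer called. With at least 2 Prrx1 UMIs required, Pdx1 was at 1.14, and Sox4, at -0.57, was no longer called. A deeper cell is more likely to show a Prrx1 UMI, and the part of depth in the choice of these cells was not tested.

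Markers of other cell types were measured beside the Prrx1-positive cells. All 8 fibroblast markers were higher in Prrx1-positive Vim-high cells, with a summed level of 467 CPM against 38.0 CPM in Prrx1-negative ones, and 9 cells had over 1% of their UMIs in them. The median cell had 61.2 CPM of fibroblast genes, and the part of fibroblasts in these values was not tested. Islet hormones, made by endocrine cells of which beta cells express Pdx1, summed to 1.10 CPM in Prrx1-positive cells and, outside the 5 islet-hormone-high cells, to 1.38 CPM over the CD9hi library. Ductal markers summed to 8102 CPM in Prrx1-positive cells and 16616 CPM in other CD9hi cells, with 0 of 9 higher in the class. Each of the 9 had a UMI there, which in a sum over so many cells says little about single cells. Epcam, Cdh1, Krt19 and Krt7 were at 88.1, 21.1, 118 and 74.5 CPM, each with a median of 0 over the Prrx1-positive cells.

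**Figure D4:**
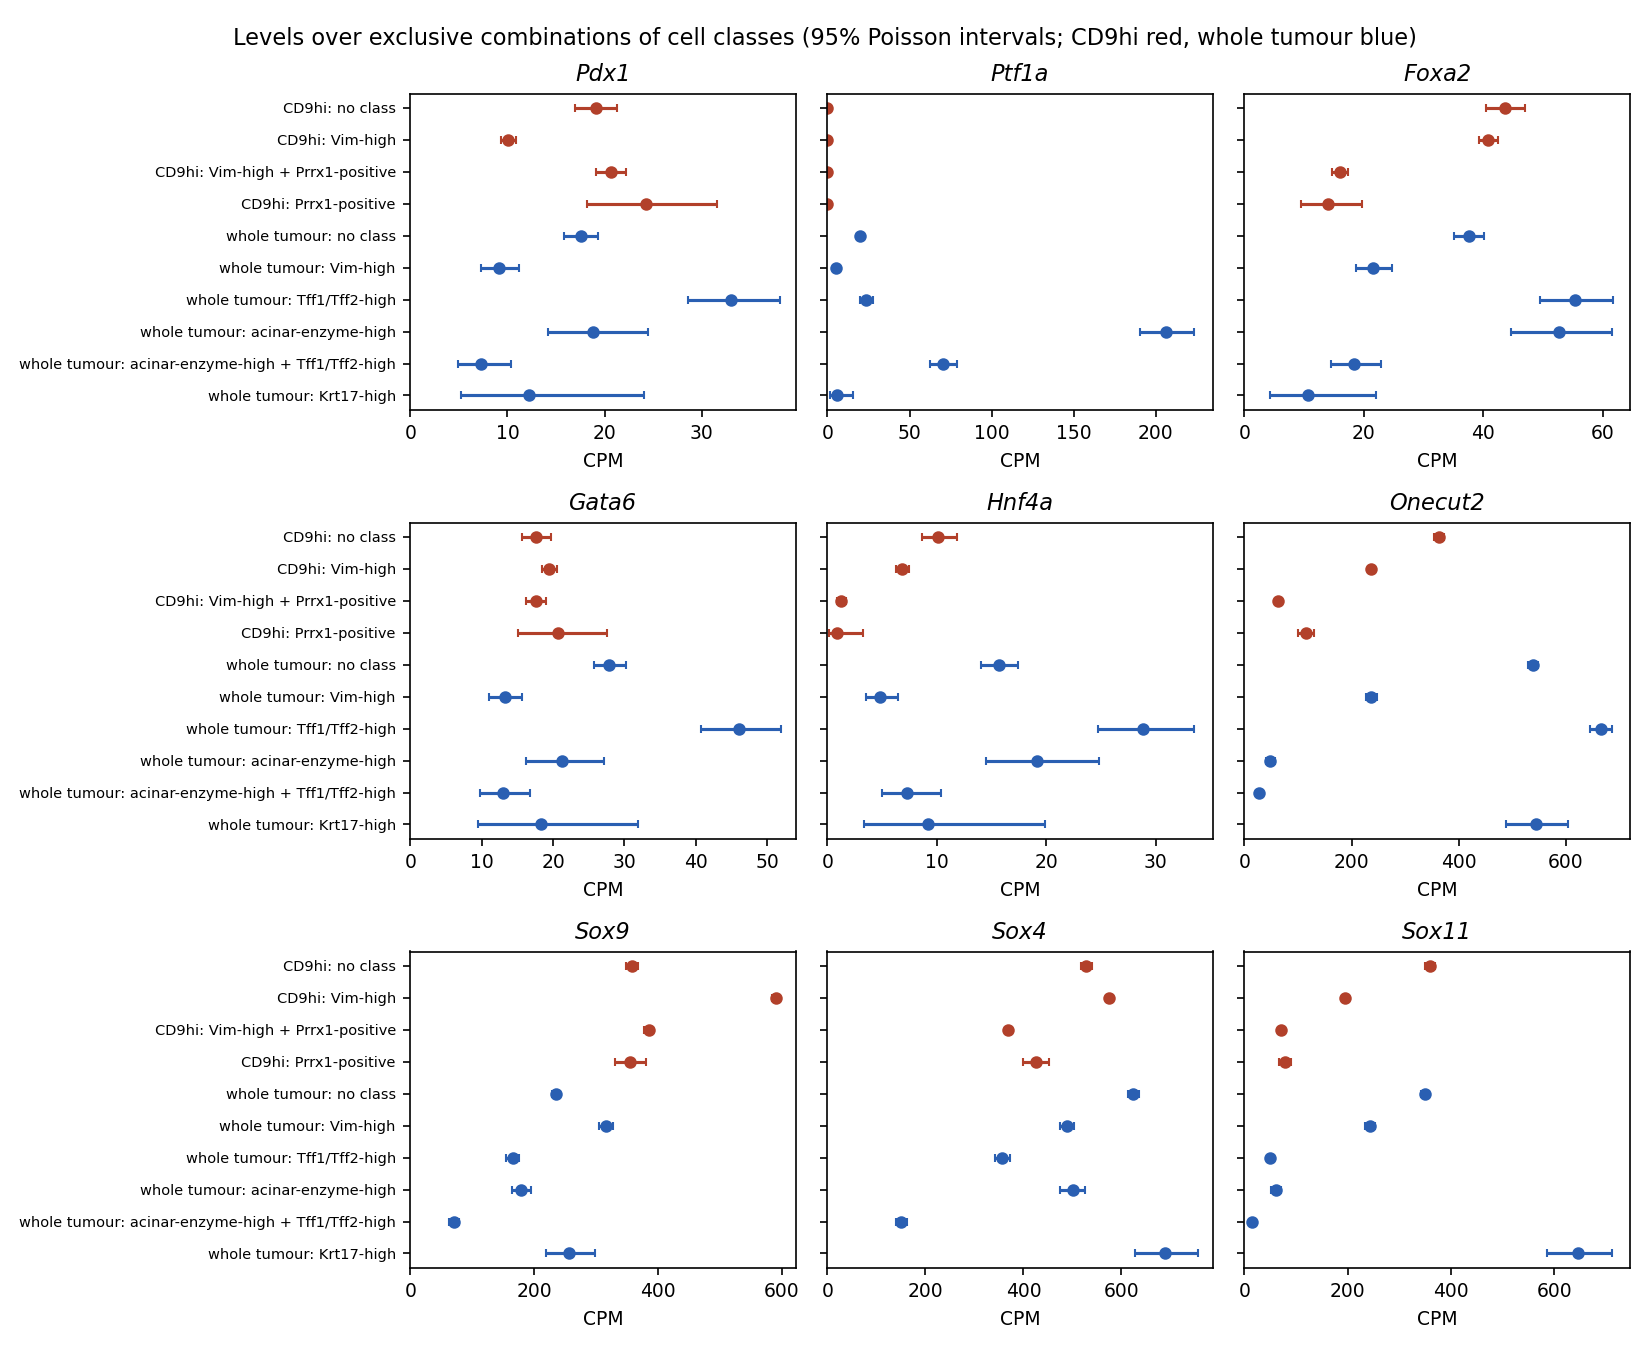
Level of each gene in CPM, with 95% Poisson intervals, over the 10 combinations of classes that held at least 30 cells and do not overlap, CD9hi in red above and whole tumour in blue below. Ptf1a peaks in cells high for acinar enzymes alone (206 CPM), Gata6, Hnf4a, Pdx1 and Onecut2 in cells high for trefoil genes alone, Sox9 in CD9hi Vim-high cells (590.2 CPM) and Sox4 and Sox11 in Krt17-high cells.

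The 9 genes took different orders over these 10 combinations. Sox9 was at 590.2 CPM in CD9hi cells high for Vim alone, 385 CPM with Prrx1 added and 358 CPM in CD9hi cells of no class. Every CD9hi group lay above every whole-tumour group for Sox9, the highest of the latter being Vim-high at 315 CPM. How many of all genes parted the libraries in this way was not counted, so it says nothing particular about Sox9. Onecut2 was at 665 CPM in trefoil-high, 544 CPM in Krt17-high and 538 CPM in whole-tumour cells of no class, with overlapping intervals for the lower pair. It was lowest in cells high for both acinar enzymes and trefoil genes, at 26.8 CPM, of which 73.7% were low in Malat1. Sox11 was at 646 CPM in Krt17-high cells, 359 CPM in CD9hi cells of no class, 350 CPM in whole-tumour cells of no class, and 50.3 CPM in trefoil-high cells. Gata6 lay between 17.5 and 20.7 CPM in the 4 CD9hi groups, with overlapping intervals among them. Pdx1 was at 33.1 CPM in trefoil-high cells, 24.2 CPM and 20.6 CPM in the Prrx1-positive groups of CD9hi, 10.1 CPM in CD9hi cells high for Vim alone, 9.11 CPM in whole-tumour cells high for Vim alone, and 7.28 CPM in cells high for both acinar enzymes and trefoil genes.

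Across the same 10 groups, which share 2 libraries and so their depth and preparation, Pearson's r of log2 levels was 0.89 for Sox4 with Sox11, 0.77 for Pdx1 with Gata6, 0.74 for Onecut2 with Sox11, 0.70 for Foxa2 with Hnf4a and -0.81 for Sox9 with Ptf1a. These values describe the groups, and the correlation of Sox9 with Ptf1a runs along the split between the libraries. Ptf1a had 0 UMIs in every CD9hi group used here, so its log2 levels there came from the added count and the group's total UMIs. Its r values, including that of its nearest gene below, rest in part on that added count. Cells high for both acinar enzymes and trefoil genes were 73.7% low in Malat1, and their part in these r values was not tested. Among 13061 genes with at least 200 UMIs, the patterns most like each factor were those of Slc35a1 for Pdx1 (0.97), Cabp2 for Ptf1a (0.98), Irf9 for Foxa2 (0.93), Gmds for Gata6 (0.95) and Abca3 for Hnf4a (0.99). They were Sdcbp2 for Onecut2 (0.98), Esyt2 for Sox9 (0.99), Ube4a for Sox4 (0.98) and Bhlhe41 for Sox11 (0.99). None of these nearest genes was another of the 9 factors. With only 1 gene of 13061 named for each, that says nothing about patterns shared among the 9.

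Barcodes low in Malat1 were poor in all of these transcripts, with Ptf1a as the exception. In CD9hi Sox9 was at 16.4 CPM in 613 such barcodes and 551 CPM in the others, Sox4 at 32.3 CPM against 562 CPM and Onecut2 at 5.39 CPM against 228 CPM, where 63.9% of genes were lower. In the whole tumour Ptf1a was at 45.7 CPM in 216 low-Malat1 barcodes and 32.4 CPM in the others, while the other 8 genes were lower, from -1.12 for Hnf4a to -6.16 for Sox11, where 93.4% of genes were. Of those 216 barcodes 185 were acinar-enzyme-high. The pooled CD9hi over whole-tumour calls were all kept without these barcodes, with Sox9 at 1.21, Onecut2 at -0.96 and Hnf4a at -1.21.

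Further factors of pancreas and foregut were counted from a list of 30 genes, of which 21 were measured. In CD9hi cells 1 was higher and 13 were lower, where 17.1% and 13.4% of all genes were, and the median log2 ratio was -0.75, against 0.13 over all genes. The lowest were Rbpjl at -7.32, Nr0b2 at -6.99 and Nr5a2 at -6.22, of which Rbpjl and Nr5a2 are regulators of acinar genes. Rbpjl was at 0.176 CPM in CD9hi, against 28.7 CPM in whole-tumour cells, Nr0b2 at 0.100 CPM against 13.3 CPM and Nr5a2 at 0.201 CPM against 15.2 CPM. The one higher gene was Klf4, an epithelial zinc finger factor, at 378 CPM in CD9hi, against 251 CPM in whole-tumour cells (0.59, 0.56 to 0.62). Of 14 endocrine factors only 2 were measured, and Nkx6-1 was higher in CD9hi cells, at a log2 ratio of 1.53 (1.32 to 1.76). Endocrine factors under the minimum lay on both sides of 0, with Neurod1 at -4.70 and Nkx2-2 at -5.19. The ratio of Nkx6-1 therefore does not stand for the list. Of 16 other Sox genes 2 were measured, Sox7 at 0.68 (0.46 to 0.90), which was higher, and Sox5 at 0.53.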

How the data were processed

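Gene-by-barcode matrices of UMI counts were deposited for 2 libraries, 1 per group, as unnormalised whole numbers. Per the submitters' processing notes they were made with Cell Ranger 7.0.0 on GRCm39, whereas the matrix headers name version 6.1.2, and per the labels' protocols the libraries used the 10x 3′ chemistry. Whether intronic reads were counted is not given in the sources used here. Barcodes under 500 genes, under 1000 UMIs or above 20% mitochondrial UMIs were dropped. This took out 408 CD9hi and 532 whole-tumour barcodes and left 119632120 and 46270361 UMIs.

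UMIs were summed per library and class and given as CPM with exact Poisson intervals. Log2 ratios added 0.5 counts, with conditional binomial intervals. Shares of cells had Clopper-Pearson intervals after thinning to 5000 UMIs. All intervals are at 95% and cover counting error only. The calculation was tested on simulated data. Classes were set by the limits given with the results, and classes of at least 50 cells were compared. Doublets were kept, because an automatic Scrublet threshold marked 0.02% of CD9hi and 0.549% of whole-tumour barcodes. An alternative removed the 224 and 63 highest scores instead. Likeness between genes was Pearson's r over class combinations of at least 30 cells, for genes with at least 200 UMIs, and the nearest gene was named. Other factors were named where they were the highest or lowest of their list.

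The genes, lists and classes were chosen with earlier results of these data known. Alternatives were other cell filters, halved and doubled limits, cells of exactly 1 class, doublets removed, totals without acinar enzyme, mitochondrial and ribosomal protein genes, another added count, a minimum of 10 CPM, and leaving out acinar-enzyme-high, islet or immune cells or low-Malat1 barcodes. Chosen after seeing the data were the split of Vim-high cells by Prrx1 and its alternatives, leaving out Prrx1-positive cells, and leaving low-Malat1 barcodes out of the Epcam and Vim groups. The work used Python 3.11.15, numpy 2.4.6, scipy 1.17.1, pandas 2.3.3, scanpy 1.11.5 and matplotlib 3.10.9. A gene of the endocrine list is not reported here.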

Additional observations from a re-analysis of the deposited data

Results flagged for a closer look

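Within Vim-high cells, 3 genes lay on opposite sides of 0 for CD9hi over whole tumour depending on Epcam, with 1 library a group, and the difference itself was not tested. The log2 ratio of Hnf4a was 1.63 in Epcam-high Vim-high cells, on 155 CD9hi and 8 whole-tumour UMIs, and -0.64 in Epcam-low Vim-high cells. That of Onecut2 was 0.37 in Epcam-high Vim-high and -0.75 in Epcam-low Vim-high cells. That of Sox4 was 0.43 in Epcam-high Vim-high and -0.071 in Epcam-low Vim-high cells. Without low-Malat1 barcodes the values in Epcam-low Vim-high cells were -0.36 for Hnf4a, with an interval that included 0, -0.53 for Onecut2 and 0.13 for Sox4, which then lay on the same side of 0 in both groups.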

How the results depend on the processing

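No paired analysis was possible because each group had 1 library. For the same reason no replicate could be left out. Of the counts of genes called, 96 stayed within 1.5 times their main value and 26 did not. Of 549 single values, 220 moved beyond their counting error. Among the single ratios 37 changed sign, 0 of them past 1.5-fold to begin with. In acinar-enzyme-high cells Foxa2, at -0.15, Hnf4a, at -0.29, and Pdx1, at -0.56, were at 0.47, 0.28 and 0.04 without low-Malat1 barcodes. Genes higher in CD9hi Vim-high cells numbered 0, and 1 with halved limits, with exactly 1 class or without low-Malat1 barcodes. Genes lower in acinar-enzyme-high cells numbered 5, then 8 with doubled limits and 2 with exactly 1 class, without low-Malat1 barcodes or with restricted totals. Genes higher in Tff1/Tff2-high cells numbered 1, then 4 with halved limits, 5 with exactly 1 class, 4 without low-Malat1 barcodes, 2 without acinar-enzyme-high cells among the others and 5 with restricted totals. Genes higher in whole-tumour Vim-high cells numbered 1, and 0 without low-Malat1 barcodes, without acinar-enzyme-high cells among the others or with restricted totals. Between libraries within Vim-high cells, genes higher numbered 2, then 1 with halved limits and 4 without low-Malat1 barcodes. Genes lower there numbered 1, and 0 with doubled limits, with exactly 1 class, without low-Malat1 barcodes or without Prrx1-positive cells. Genes lower in Prrx1-positive Vim-high cells numbered 5, then 3 without low-Malat1 barcodes. In Epcam-low Vim-high cells, without low-Malat1 barcodes, genes higher in CD9hi numbered 2 in place of 1 and genes lower 0 in place of 3. In Epcam-low Vim-low cells 1 in place of 2 were higher and 4 in place of 2 lower, without a share of all genes beside these counts. The cause was not tested. Doubled limits and exactly 1 class gave no value for Krt17-high cells, which then fell under 50. Depth limited Hnf4a, whose mean was under 5 CPM in several classes, and every Krt17-high value below 10 UMIs.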

Other observations

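Sox2, a factor of foregut and neural progenitors that was named after its values were seen, was found in the CD9hi library alone. It had 752 UMIs in 155 of 5092 CD9hi cells, at 6.29 CPM, and 0 UMIs in 2550 whole-tumour cells. A floor of 3 whole-tumour cells, which is not the bound of an interval, would be 0.118%. Against a floor of 3 counts over the whole-tumour library, Sox2 was 96.95-fold higher in CD9hi. The lower bound of its log2 ratio was 6.30, a smaller difference than the floor gives. Its mean over the libraries was under the 5 CPM minimum for a call. It was concentrated, with 92.4% of its UMIs in Prrx1-positive cells, of which 10.6% had a UMI, and 83 UMIs in a single cell. The whole tumour held only 6 Prrx1-positive cells, whose 0 UMIs allow up to 44.8 CPM, against 19.7 CPM in CD9hi Prrx1-positive cells, so within that class a difference was not detectable.

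Nkx6-1, a factor of beta cells and pancreatic progenitors, had 80.5% of its CD9hi UMIs in Vim-high cells, which were 80.8% of cells, and 9.005% in Prrx1-positive cells, which were 21.6%. Apart from the pooled ratio, no comparison was made for it.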
